A study of Mus musculus with 12 samples.

Results

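The 10 genes described here encode transcription factors of the granulocyte lineage: the C/EBP family members Cebpa, Cebpb, Cebpd and Cebpe, the ETS factor Spi1 (which encodes PU.1), Runx1, the zinc finger repressor Gfi1, and the Krüppel-like factors Klf2, Klf4 and Klf6. They were chosen by name, and their rows were taken from a count table of 29737 genes. All 10 passed the filter on low counts, which left 16761 genes for testing. The RNA came from neutrophils of wild-type mouse bone marrow that had been cultured for 24 h in RPMI medium with fetal bovine serum. One group received PBS, one 200 μM taurocholic acid (TCA), one 200 μM glycocholic acid (GCA), and one tauro-β-muricholic acid (Tβ-MCA), whose dose is 10 μM in the sample labels and 200 μM in the study's text. Each of the 4 groups had 3 samples, numbered 3, 5 and 6 for PBS and 3, 4 and 5 for each bile acid. The labels describe the cells as Ly6G+ and selected on magnetic beads, whereas the study's methods describe a neutrophil separating medium followed by an enrichment kit. Neither source says whether the 3 samples of a group came from separate mice or cultures, so the p-values measure the spread between these samples, which may be technical. The comparisons address whether a primary bile acid shifts the phenotype of neutrophils, here read through the factors that set their identity.

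In the bone marrow, PU.1 and C/EBPα are known to commit progenitors to the myeloid lineage, with RUNX1 acting upstream of both in blood cell formation. GFI1 and C/EBPε then drive granulocyte maturation, GFI1 by repressing monocyte genes and C/EBPε by switching on the genes of the secondary granules. C/EBPβ is known for granulocyte production under stress, C/EBPδ for acute inflammatory responses, KLF4 for monocyte differentiation, KLF2 for holding myeloid cells quiescent, and KLF6 for inflammatory programmes of myeloid cells.

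The promoters of Cebpa and Klf4 are shown because these genes had the largest differences after Tβ-MCA treatment, given below. Each line is the 250 bases before the RefSeq start on GRCm38.p6, read 5′ to 3′ on the gene's own strand, and capitals mark TTGCG (the core of a C/EBP site) and CCACCC (a box bound by Krüppel-like factors) on either strand. The Cebpa sequence lies at chr7:35119043-35119292 on the plus strand and the Klf4 sequence at chr4:55532476-55532725 on the minus strand.
Cebpa: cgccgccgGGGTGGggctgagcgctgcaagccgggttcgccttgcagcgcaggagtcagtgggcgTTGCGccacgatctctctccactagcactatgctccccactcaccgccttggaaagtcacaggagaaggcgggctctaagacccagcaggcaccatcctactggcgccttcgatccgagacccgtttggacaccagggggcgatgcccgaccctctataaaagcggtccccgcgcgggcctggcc
Klf4: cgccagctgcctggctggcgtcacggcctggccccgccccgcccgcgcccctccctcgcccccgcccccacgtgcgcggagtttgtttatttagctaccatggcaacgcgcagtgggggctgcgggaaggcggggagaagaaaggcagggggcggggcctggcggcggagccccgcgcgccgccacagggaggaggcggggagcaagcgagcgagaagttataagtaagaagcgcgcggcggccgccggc
The Cebpa window held 1 TTGCG, starting at base 66, and 1 CCACCC on the opposite strand, at base 9. The Klf4 window held neither, and it had a G+C content of 74.0% against 66.4% for Cebpa. Over all 32851 RefSeq windows of this length, 14.5% held TTGCG and 28.1% held CCACCC. Windows were found for 7 of the 10 genes (9 windows in all), and no entry was given for Cebpd, Cebpe and Spi1. CCACCC was also present in the windows of Cebpb (1 match), Klf2 (1 match) and Gfi1 (2 matches), and the longer C/EBP motif TTGCNNAA, present in 9.56% of all windows, was found once, for Gfi1. The PU.1 motif GAGGAAG (10.6% of all windows) and the RUNX motif TGTGGT (14.0%) were in none of the 9 windows. A match is a run of letters and not a measured binding site.

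Between 32757389 and 41375925 reads were assigned to genes in each sample, and the lowest count of any of the 10 genes in a sample was 165. At these depths 3 counts correspond to 0.0725 to 0.0931 CPM (the reads of a gene relative to all reads of its library, scaled here by TMM factors), so none of the genes was near the counting floor. A marker list of 7 neutrophil genes, among them S100a8, S100a9, Csf3r and Cxcr2, summed to between 20942 and 29937 CPM in every sample. S100a9 alone made up 17455 to 25502 CPM of this, while Ly6g was between 7.54 and 21.4 CPM. Sums over markers of B cells (at most 12.8 CPM), T and NK cells (at most 3.4 CPM) and erythroid cells (at most 3.0 CPM) were low. Progenitor and cycling cell markers summed to 2344 to 2920 CPM over all samples, most of it from Mki67 (1744 to 2177 CPM). The markers Cd3g, Ebf1, Hba-a2, Hbb-bt, Klrb1c and Nkg7 had no read in at least 1 sample. Monocyte and macrophage markers were present in every sample, and their values are given below, beside those of Cebpa and Klf4.

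In the PBS samples the 10 genes covered a wide range of levels. On the deposited RPKM scale, which is per exon length and so allows genes to be compared, Cebpe had the highest mean at 216 ± 53.8 RPKM (SD, n = 3) and Spi1 followed at 178 ± 8.05. Their samples overlapped, so the order of these neighbours was within their spread. Cebpb stood at 94.8 ± 6.39 and Klf6 at 69.2 ± 6.27, each apart from its neighbours. Cebpd (28.5 ± 3.31) and Cebpa (25.3 ± 0.896) overlapped. Below them came Gfi1 at 15.9 ± 1.62, Klf2 at 13.1 ± 0.331, Runx1 at 3.74 ± 0.185 and Klf4 at 3.15 ± 0.149, each without overlap. The late granulocyte factor and PU.1 thus ranked above 98.6% and 98.3% of the genes tested, whereas Runx1 and Klf4 lay close to the middle, at 53.1% and 49.8%.

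**Figure D1:**
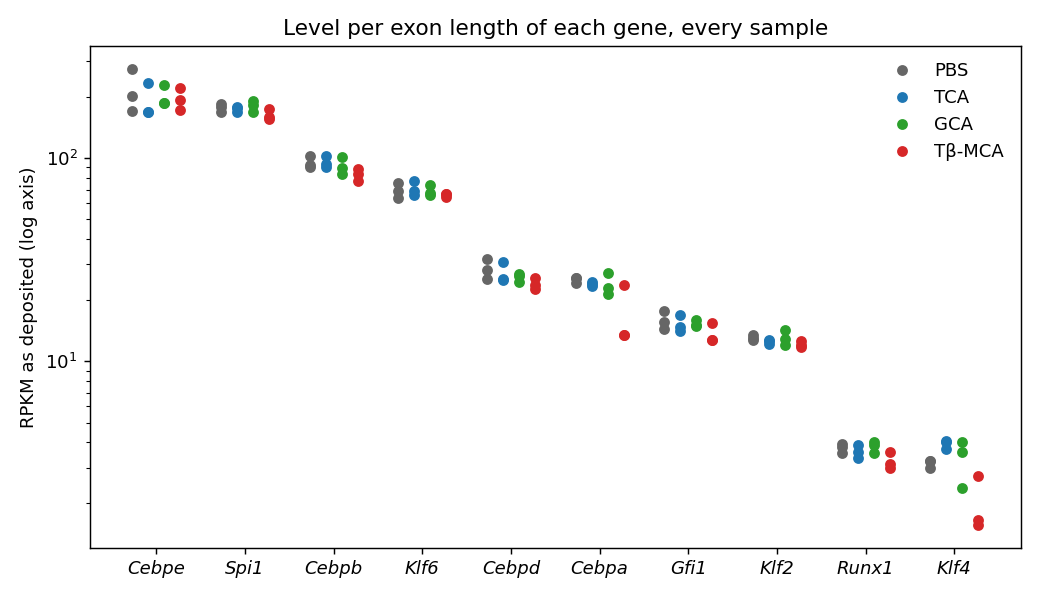
Deposited RPKM (vertical log axis) of the 10 genes in every sample, ordered by their PBS mean, with a point per sample and a colour per treatment. Cebpe and Spi1 are highest and Runx1 and Klf4 lowest in each group, and 2 of the 3 Tβ-MCA points of Cebpa and of Klf4 sit below every other sample of that gene.

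With Tβ-MCA, all 10 genes had a lower fitted level than with PBS, and the differences were largest for Cebpa and Klf4, but none passed the test across all genes. The sign held under each other scaling and tool, and it turned for 1 gene, Cebpe, when PBS sample 3 was left out (log2 fold change 0.037). In edgeR's quasi-likelihood test over all 12 samples, 0 of the 10 had an adjusted p below 0.05, where 7.62% of all genes tested did and 3.18% did so downwards. At an unadjusted p below 0.05, 7 of the 10 were lower, against 12.3% of all genes. With the study's own cutoffs (unadjusted p below 0.05 and a fold change of 2), 0 of the 10 were called, against 2.95% of all genes. On TMM-scaled CPM, all Tβ-MCA samples lay below all PBS samples for 6 of the 10, a pattern held by 12.8% of all genes. These were Cebpa, Cebpb, Cebpd, Runx1, Klf2 and Klf4. On the deposited RPKM scale Cebpd and Runx1 overlapped, as Tβ-MCA sample 5 was above PBS sample 6. The values were 25.64 against 25.42 RPKM for Cebpd and 3.599 against 3.546 RPKM for Runx1. The others named did not overlap on that scale either. DESeq2 on the same 12 samples called Cebpa (adjusted p = 0.00579) and Klf4 (adjusted p = 0.0110) as lower, against 6.22% of all genes. In bulk samples, fewer cells of a type and less of an RNA per cell cannot be told apart, and this holds for every difference given here.

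The count changed with 1 library. For 8 of the 10 genes, sample 5 was the highest of the 3 Tβ-MCA samples. Without it, edgeR called 7 of the 10 genes at an adjusted p below 0.05, all lower, where 18% of all genes were called and 9.44% were called lower. These were Cebpa, Klf4, Runx1, Gfi1, Spi1, Cebpb and Cebpd, while Cebpe, Klf2 and Klf6 did not pass. DESeq2 called the same 7 without that sample, where it called 10.7% of all genes lower. Scaling by total library size kept 4 of them (Cebpa, Klf4, Runx1 and Gfi1), where 7.64% of all genes were called lower. Under the study's cutoffs 1 of the 10, Klf4, was called without it, against 5.61% of all genes. Leaving out any other library of these groups left 0 of the 10 called. Of all genes, 0.981% were then called without PBS sample 6 and 0% without each of the others.

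**Figure D2:**
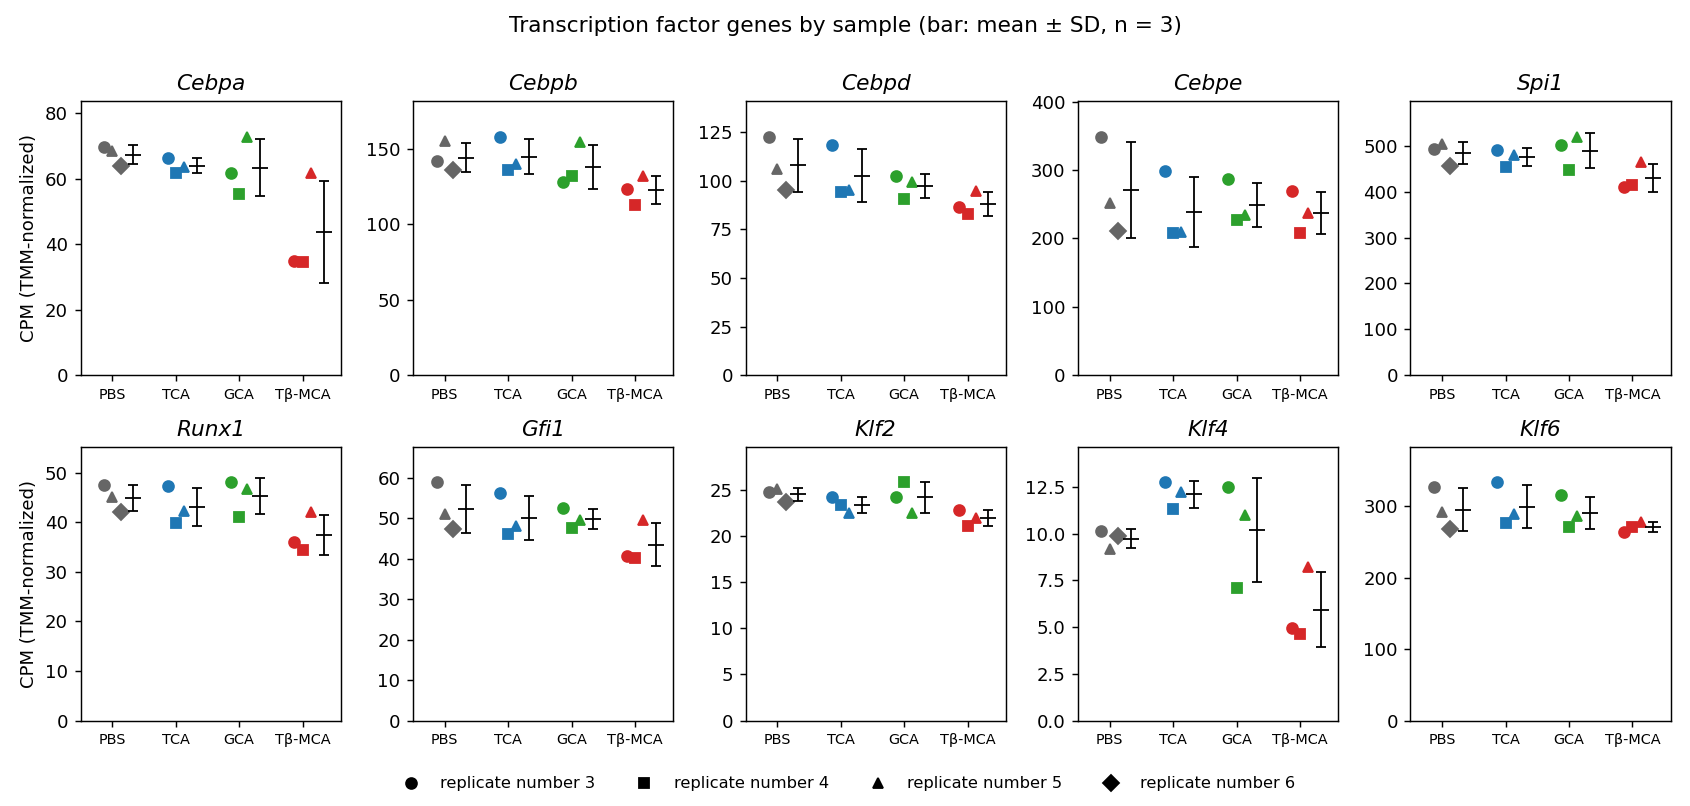
TMM-scaled CPM of each gene (vertical axes from 0) in the 3 samples of each group, with the marker shape giving the replicate number and the bars giving mean ± SD. The Tβ-MCA samples 3 and 4 lie at 51.8% and 51.2% of the PBS mean for Cebpa and at 50.7% and 47.7% for Klf4, while sample 5 lies at 91.8% for Cebpa and 84.7% for Klf4.

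Cebpa, the gene of the factor that starts granulocyte commitment, lies on chromosome 7 (35119293 to 35121928, plus strand, GRCm38). It measured 69.7, 68.4 and 64.0 CPM with PBS and 34.9, 34.5 and 61.9 CPM with Tβ-MCA in samples 3, 4 and 5. Samples 3 and 4 were thus at 51.8% and 51.2% of the PBS mean and sample 5 at 91.8%, just below the lowest PBS sample. The log2 fold change was -0.62 (SE 0.20, 95% interval -1.06 to -0.19, edgeR adjusted p = 0.0813) and -0.96 without sample 5 (adjusted p = 4.32e-05). With TCA the gene measured 66.5, 61.9 and 63.6 CPM, and with GCA 61.9, 55.5 and 72.9 CPM, both overlapping PBS. A run of 51 exon bases is shared with Gm45091 on the other strand, and whether the counting used strand is not given in the sources used here.

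Klf4, whose product is known for monocyte differentiation, lies on chromosome 4 (55527143 to 55532466, minus strand). Its levels were 10.2, 9.18 and 9.87 CPM with PBS and 4.94, 4.64 and 8.24 CPM with Tβ-MCA, where samples 3 and 4 were again the low ones, at 50.7% and 47.7% of the PBS mean, and sample 5 was at 84.7%. The log2 fold change was -0.71 (SE 0.22, 95% interval -1.18 to -0.24, edgeR adjusted p = 0.0640), and without sample 5 it was -1.02 (adjusted p = 0.00156). TCA gave 12.7, 11.3 and 12.2 CPM and GCA 12.5, 7.10 and 11 CPM. Klf4 was the 1 gene of the 10 with every TCA sample above every PBS sample, a pattern that 4.91% of all genes showed. Its TCA difference was 0.31 on the log2 scale with an interval of -0.14 to 0.77, and it did not pass the test.

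With Tβ-MCA, marker sums of monocytes and of some other cells were lower, as Cebpa and Klf4 were. The summed level of 12 monocyte and macrophage markers was 4660, 4275 and 4244 CPM in the PBS samples and 1389, 1642 and 3485 CPM in Tβ-MCA samples 3, 4 and 5. It was 4030, 4751 and 4538 CPM in TCA samples 3, 4 and 5, the reverse of the order of Cebpa and Klf4 in these samples. With GCA it was 3175 to 4355 CPM. The lowest GCA sample, number 4, was also lowest for Cebpa and Klf4, and for Cebpd, Cebpe, Spi1, Runx1, Gfi1 and Klf6. All 12 markers had a fitted level below PBS in the Tβ-MCA comparison (median log2 fold change -0.85). At an edgeR adjusted p below 0.05, 0 of them were called, where 3.18% of all genes were called lower. Without sample 5, 11 were called lower (median -1.29), where 9.44% of all genes were. Fn1, the fibronectin gene, measured 1621 CPM in the lowest PBS sample, 50.3 and 54.4 CPM in Tβ-MCA samples 3 and 4, and 1233 CPM in sample 5. The 5 eosinophil markers summed to 78.5, 54.1 and 124 CPM with Tβ-MCA and to 138 to 241 CPM with PBS, and 6 B cell markers to 3.8 to 5.9 CPM against 7.6 to 12.8 CPM. The 7 neutrophil markers summed to 21602, 20942 and 24138 CPM with Tβ-MCA and to 25688 to 29937 CPM with PBS, again without overlap. Most of this sum was S100a9, at 17455 to 20149 CPM with Tβ-MCA and 21325 to 25502 CPM with PBS. Ly6g measured 7.54, 8.32 and 12.9 CPM with Tβ-MCA and 17.8 to 21.4 CPM with PBS. Csf3r alone overlapped, at 949 to 1106 CPM with Tβ-MCA and 851 to 1095 CPM with PBS. Of the 7, 3 were called lower, against 3.18% of all genes, and 6 without sample 5, against 9.44%. The sum of 5 progenitor and cycling cell markers overlapped, at 2460 to 2789 CPM with Tβ-MCA and 2344 to 2869 CPM with PBS. So did that of 4 basophil and mast cell markers, at 17.4 to 32.1 CPM and 18.1 to 35.1 CPM. Mki67 and Ms4a2 made up most of these sums. Cd34, a progenitor marker, measured 2.81, 2.27 and 5.67 CPM with Tβ-MCA and 5.501 to 10.1 CPM with PBS. Only its sample 5 overlapped. Mcpt8, a basophil marker, measured 1.24 to 1.39 CPM with Tβ-MCA and 1.86 to 3.16 CPM with PBS, without overlap. The other members of both lists overlapped PBS. The part of other cell types in the Cebpa and Klf4 differences was not tested.

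**Figure D3:**
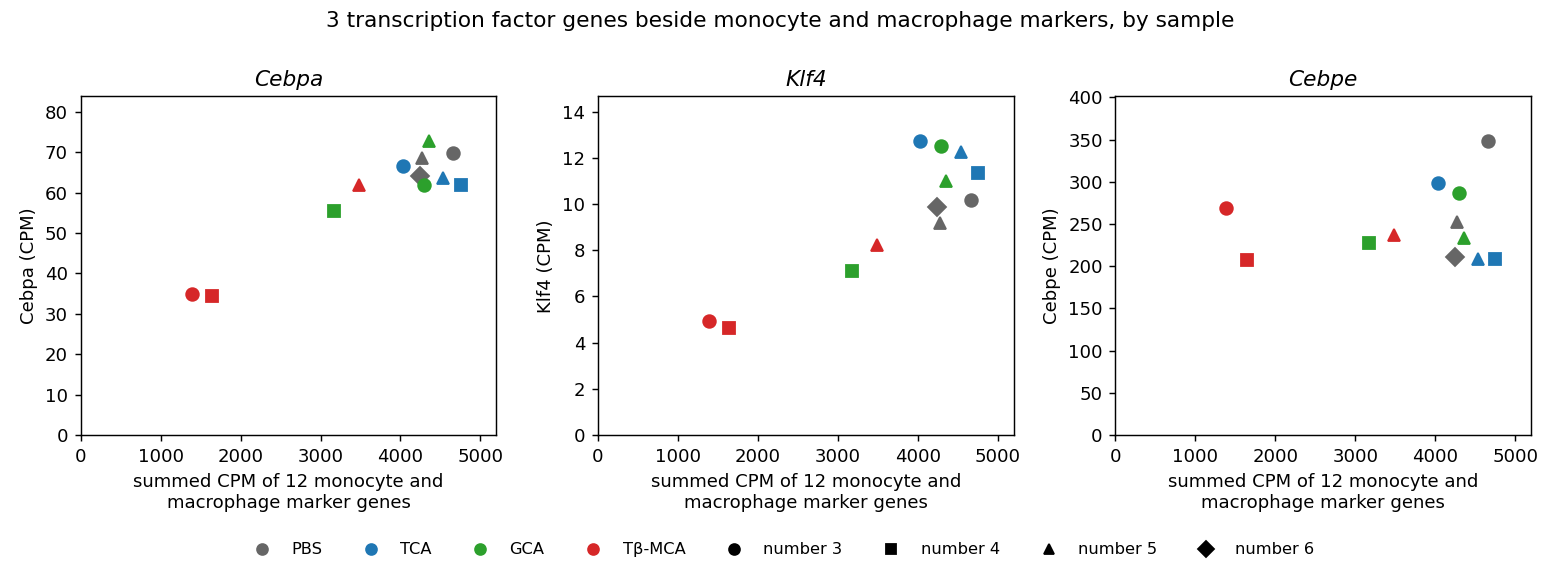
CPM of Cebpa, Klf4 and Cebpe (vertical axes) against the summed CPM of 12 monocyte and macrophage markers (horizontal axis) in each of the 12 samples, coloured by treatment and shaped by replicate number. Tβ-MCA samples 3 and 4 combine the lowest marker sums (1389 and 1642) with the lowest Cebpa and Klf4, whereas Cebpe in these samples (269 and 207 CPM) lies within or just under its PBS range.

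The other members of the C/EBP family had smaller differences. Cebpb, on chromosome 2 (167688915 to 167690418), measured 142, 155 and 136 CPM with PBS and 124, 113 and 132 CPM with Tβ-MCA, so that the groups did not overlap by a margin of a few CPM. Its log2 fold change was -0.23 (SE 0.086, edgeR adjusted p = 0.107) and -0.29 without sample 5 (adjusted p = 0.0430). Cebpd, on chromosome 16 (15887286 to 15891031), measured 123, 106 and 95.5 CPM with PBS and 86.7, 82.9 and 94.8 CPM with Tβ-MCA. Here the gap between the groups was under 1 CPM, and the log2 fold change was -0.29 (SE 0.10, adjusted p = 0.0884), or -0.35 without sample 5 (adjusted p = 0.0443). Cebpe, the factor of late maturation on chromosome 14 (54710363 to 54712174), had the widest spread of the 10 genes in PBS, with a coefficient of variation of 26.1%. It measured 349, 252 and 211 CPM with PBS and 269, 207 and 237 CPM with Tβ-MCA, and the groups overlapped. Its log2 fold change was -0.19 (SE 0.20, adjusted p = 0.625) and stayed at -0.19 without sample 5 (adjusted p = 0.676). With the sample number as a block in the edgeR model, Cebpe (adjusted p = 0.0373) and Cebpd (adjusted p = 0.0236) were called lower, against 4.34% of all genes. Cebpb shares 312 exon bases with Tmem189 and Cebpd 559 with Spidr, both on the opposite strand.

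Spi1, Runx1 and Gfi1, which together cover lineage commitment and the repression of alternative fates, lay between Cebpa and Klf6 in the size of their differences. Spi1, on chromosome 2 (91082390 to 91115756), measured 493, 504 and 457 CPM with PBS and 410, 414 and 466 CPM with Tβ-MCA, where only sample 5 overlapped PBS. The log2 fold change was -0.17 (SE 0.073, edgeR adjusted p = 0.152), and -0.23 without sample 5 (adjusted p = 0.0418). Runx1, on chromosome 16 (92601466 to 92826149), measured 47.4, 45.1 and 42.0 CPM with PBS and 36.1, 34.3 and 42.0 CPM with Tβ-MCA. Sample 5 lay just below the lowest PBS sample, and the log2 fold change was -0.26 (SE 0.093, adjusted p = 0.0991), or -0.35 without sample 5 (adjusted p = 0.0170). Gfi1, on chromosome 5 (107716657 to 107726036), measured 58.8, 51.1 and 47.2 CPM with PBS and 40.6, 40.2 and 49.5 CPM with Tβ-MCA. Its log2 fold change was -0.27 (SE 0.10, adjusted p = 0.118) and -0.37 without sample 5 (adjusted p = 0.0190). As for Spi1, sample 5 was the single Tβ-MCA sample inside the PBS range. Runx1 shares 106 exon bases with Gm26626 and Gfi1 101 with A430072P03Rik, on the opposite strand.

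Of the Krüppel-like factors, Klf2 and Klf6 gave no call with or without sample 5. Klf2, on chromosome 8 (72319033 to 72321656), measured 24.8, 25.1 and 23.7 CPM with PBS and 22.9, 21.1 and 21.9 CPM with Tβ-MCA. The groups were narrow and did not overlap, and the log2 fold change was -0.16 (SE 0.078, edgeR adjusted p = 0.214). Klf6, the most abundant of the 3 family members, lies on chromosome 13 (5861489 to 5870393). It measured 328, 292 and 268 CPM with PBS and 265, 272 and 278 CPM with Tβ-MCA, which overlapped, and its log2 fold change was -0.12 (SE 0.085, adjusted p = 0.394).

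With TCA or GCA none of the 10 genes passed the test. In the TCA comparison 0 genes of the whole table were called by edgeR (0%), 3.26% of all genes had an unadjusted p below 0.05, and none of the 10 did. DESeq2 called 1 gene of the table there, and none of the 10. The log2 fold changes of the 10 ran from -0.18 for Cebpe to 0.31 for Klf4. In the GCA comparison edgeR and DESeq2 both called 0 genes (0%), 3.53% of all genes had an unadjusted p below 0.05, none of the 10 among them, and the 10 log2 fold changes ran from -0.15 for Cebpd to 0.07 for Klf4, with all 10 genes overlapping PBS. The comparisons of the 3 bile acids share the same 3 PBS samples.

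The remaining C/EBP genes lay close to PBS with both compounds. Cebpb measured 158, 136 and 140 CPM with TCA and 128, 132 and 154 CPM with GCA. Cebpd measured 119, 94.3 and 95.5 CPM with TCA and 102, 90.5 and 99.4 CPM with GCA. Both genes overlapped PBS, Cebpb on both sides of its PBS mean and Cebpd without a sample above the highest PBS sample. Cebpe measured 298, 208 and 209 CPM with TCA and 287, 228 and 234 CPM with GCA, and here number 3 stood apart from the other samples in each group.

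The commitment factors and the repressor gave the same picture. Spi1 measured 492, 455 and 481 CPM with TCA and 501, 447 and 520 CPM with GCA, on both sides of the PBS range of 457 to 504 CPM. Runx1 measured 47.3, 39.8 and 42.3 CPM with TCA and 48.0, 41.1 and 46.6 CPM with GCA. Gfi1 measured 56.2, 46.0 and 48.0 CPM with TCA and 52.5, 47.5 and 49.4 CPM with GCA. For all 3 genes the lowest TCA sample and the lowest GCA sample were number 4.

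Klf2 measured 24.2, 23.4 and 22.5 CPM with TCA and 24.2, 25.8 and 22.5 CPM with GCA. Klf6 measured 334, 276 and 289 CPM with TCA and 316, 272 and 287 CPM with GCA. Both stayed within or close to their PBS ranges, and the widest spread of a Krüppel-like factor in these groups was that of Klf4 with GCA, at a coefficient of variation of 27.3%.

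**Figure D4:**
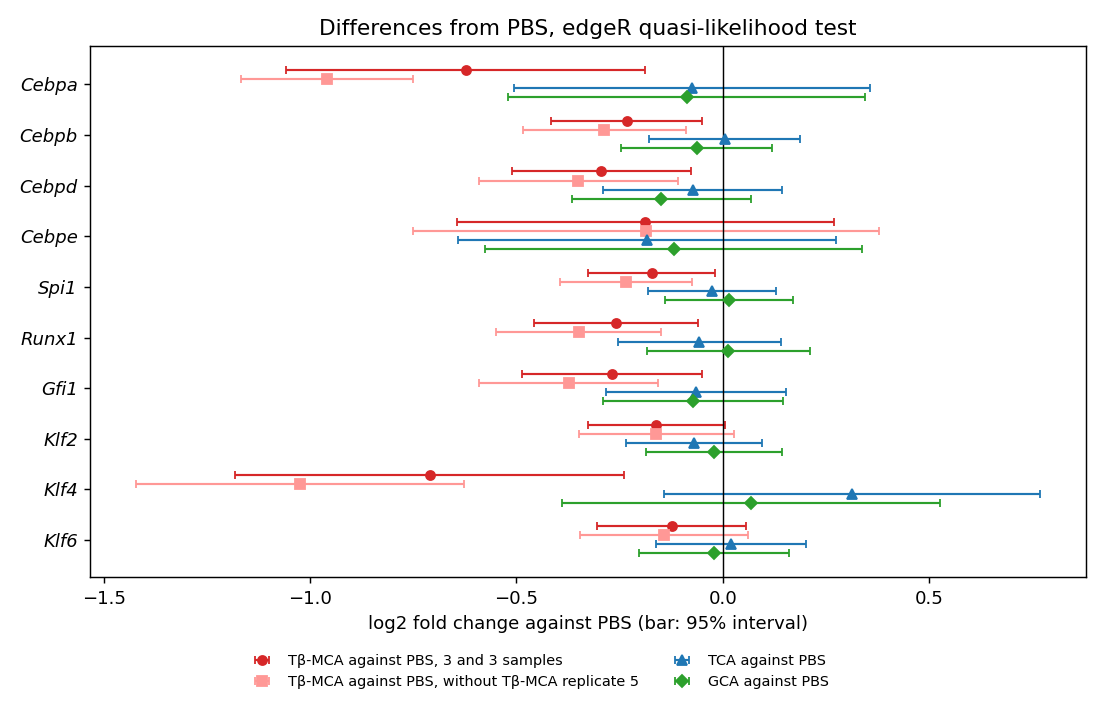
Log2 fold change against PBS (horizontal axis) of each gene for Tβ-MCA with all samples and without Tβ-MCA sample 5, for TCA and for GCA, with bars giving 95% intervals from edgeR. All 10 Tβ-MCA values lie left of 0, from -0.71 to -0.12, while the TCA and GCA values lie between -0.18 and 0.31 and every one of their intervals spans 0.

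TCA and GCA were tested against each other because both were given at 200 μM. They share the cholic acid core and differ in the amino acid conjugated to it, taurine in TCA and glycine in GCA. None of the 10 differences passed the test with edgeR p-values adjusted over all genes, at which edgeR called 0% of the table and DESeq2 0 genes. An unadjusted p below 0.05 was reached by 2.46% of all genes and by none of the 10. The difference, GCA against TCA on the log2 scale, was largest for Klf4 at -0.25, with an interval of -0.70 to 0.21. For Cebpa it was -0.01 with an interval of -0.44 to 0.42 and for Cebpe 0.06 with an interval of -0.39 to 0.52. These are the widest intervals of the 10. They were narrower for Spi1 (-0.11 to 0.20), Klf2 (-0.12 to 0.21), Klf6 (-0.22 to 0.14), Cebpb (-0.25 to 0.11), Runx1 (-0.13 to 0.27), Cebpd (-0.29 to 0.14) and Gfi1 (-0.23 to 0.21). Tβ-MCA, a taurine conjugate of muricholic acid, was given at another labelled dose, and its values were only set beside those of the other compounds.

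The partners, relatives and known targets of the 10 factors were followed through 10 lists, which held 103 genes of the table, 98 of them tested. These lists were chosen with earlier results of these data known, so their shares cannot test for an excess over all genes. With Tβ-MCA, 14 of the 98 fell and 5 rose at an edgeR adjusted p below 0.05, which is 19.4%, beside 7.62% of all genes. Their median log2 fold change was -0.14, and that of all genes was 0.0041. Without Tβ-MCA sample 5, 31 fell and 6 rose (37.8%, beside 18% of all genes). Without PBS sample 6 the numbers were 3 and 2 (5.1%, beside 0.981% of all genes). With total library size 10 fell and 5 rose (15.3%, beside 8.4% of all genes), and the 4 genes not called there were Cebpg, Gata1, Lmo2 and Zeb2, named after their values were seen. With the sample number as a block 12 fell and 5 rose (17.3%, beside 8.94% of all genes). These 4 were not called there, nor were Ddit3, Camp and Mmp9. Without PBS sample 3, PBS sample 5, Tβ-MCA sample 3 or Tβ-MCA sample 4 none of the 98 was called, and neither was any gene of the table. With TCA, with GCA and between them none of the 98 was called. Genes are thus named below as called over all 12 samples.

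The granule genes, targets of the factors above, were the lists with the lowest medians. Of all genes, 3.18% were called lower in the main fit and 9.44% without Tβ-MCA sample 5. Of 6 primary granule genes, known targets of C/EBPα, PU.1 and RUNX1, Ctsc (cathepsin C, which activates the granule proteases) fell by 0.87 on the log2 scale (adjusted p = 0.0307), and the list's median was -1.09. Without Tβ-MCA sample 5, Mpo, Elane, Prtn3 and Ctsg were called lower as well, with log2 fold changes of -2.40, -2.53, -1.16 and -1.92. These 4, which encode myeloperoxidase and the serine proteases of the granule, were named after their values were seen. Of 9 secondary and tertiary granule genes, known targets of C/EBPε, all had a fitted level below PBS and 4 fell: Camp (the cathelicidin precursor), Mmp9 (gelatinase B), Chil3 (a chitinase-like lectin) and Lcn2 (lipocalin 2). Their log2 fold changes were -1.14 for Camp, -0.63 for Mmp9, -0.46 for Chil3 and -0.29 for Lcn2, with adjusted p-values of 0.0417, 0.0481, 0.0350 and 0.0404. The gene of C/EBPε itself did not pass the main test in these samples, as given above.

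In the brackets that follow, the first number is a log2 fold change and the second an edgeR adjusted p. Among the partners and regulators of the C/EBP factors (9 tested), Ddit3, a stress-induced family member that blocks the others, rose (0.47, 0.0257), and Cebpg, a partner without an activation domain, fell (-0.45, 0.0467). Among 12 relatives and partners of PU.1, Etv6, an ETS family repressor, fell (-0.39, 0.0225). None of the 6 relatives and co-repressors of GFI1, the 5 tested relatives and partners of RUNX1 or the 10 myeloid receptor genes was called. Without Tβ-MCA sample 5, the receptor genes Csf2ra (-0.47, 0.00280) and Cd14 (-0.82, 0.0400) were called lower, where 9.44% of all genes were. With the sample number as a block, Csf1r (-0.40, 0.0225) and Cd14 (-0.68, 0.00862) were called lower, where 4.34% of all genes were. Of 9 other Krüppel-like factor genes tested, Klf10 rose (0.55, 0.0422) while Klf7 (-0.32, 0.0257) and Klf9 (-0.36, 0.0340) fell. Of the known KLF2 and KLF4 targets, Thbd (thrombomodulin, 1.17, 0.0206) rose and Itgb7 (integrin β7, -0.57, 0.0350) fell. Of 26 other haematopoietic lineage factors, Rxra, a nuclear receptor, rose (0.62, 0.0206) and 4 fell, among them the proliferation factor Myc (-1.12, 0.0208), the erythroid and eosinophil factor Gata1 (-0.76, 0.0428) and Zeb2 (-0.52, 0.0470).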

How the data were processed

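RNA-seq was performed on 12 samples of mouse bone marrow neutrophils. The submitters' processing notes name Trimmomatic 0.36, STAR 2.5.3a, Subread 1.5.1 with featureCounts, and the GRCm38 build. According to the study's methods, Trimmomatic filtered the reads and featureCounts counted those in exons. The deposited counts are whole, unnormalized reads per gene, and the authors also deposited RPKM values, which matched the counts, exon lengths and totals to within a relative difference of 1.3e-06. The GCA columns are headed GA in the files. The library kit was stranded, and the strand setting of the counting is not given in the sources used here.

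Counts were analysed in R 4.3.3 with edgeR 4.0.16: genes were filtered by filterByExpr with the treatment as group, scaled by TMM, and tested by the robust quasi-likelihood F test in one model over all 4 groups, with Benjamini-Hochberg adjustment over the 16761 genes tested. The test was checked on simulated data. CPM values are TMM-scaled. Alternatives were DESeq2 1.42.0, its size factors in edgeR, total library size, no filter, limma 3.58.1 on log2(RPKM + 1) for genes with a mean of at least 0.5 RPKM, only the groups compared, the replicate number as a block, and leaving out each sample. Leaving out Tβ-MCA sample 5 with DESeq2 or with total library size was added after seeing the data.

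The 10 genes and the lists were chosen with earlier results of these data known. All 10 genes are described, with, for each list and comparison, up to 4 genes of lowest adjusted p below 0.05. Single values of some list and marker genes are not reported here. Genes resembling a member were to be named only for members called against PBS, and there were none. Promoters came from RefSeq (GRCm38.p6), and both strands were searched for each motif. Figures were drawn with matplotlib 3.10.9.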

Additional observations from a re-analysis of the deposited data

How the results depend on the processing

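In the Tβ-MCA comparison, where 0 of the 10 genes had an adjusted p below 0.05, the count was 2 with DESeq2, 3 with no filter on low counts (Cebpa, Klf4 and Cebpd, where 4.36% of all genes were called lower), and between 0 and 7 when each sample was left out in turn. Without Tβ-MCA sample 5, a pair of settings chosen after seeing the data gave 7 with DESeq2 and 4 with total library size. The other settings, apart from the block described next, gave 0. The cause was not tested. The labels share only replicate numbers between groups. Deviations from the group means correlated at r = 0.24 and 0.060 between same-numbered samples of Tβ-MCA and PBS, 0.33 and 0.13 for TCA and PBS, 0.32 and 0.13 for GCA and PBS, and 0.067 to 0.31 for GCA and TCA. Between samples of unlike number r was -0.20 to 0.12, -0.22 to 0.15, -0.20 to 0.11 and -0.23 to 0.11, in the same order. The number 3 pair had the highest r of each comparison. The main fit did not take the numbers as pairs, and the result with them as a block follows. With the number as a replicate block the count was 2 (Cebpd, adjusted p = 0.0236, and Cebpe, adjusted p = 0.0373, where 4.34% of all genes were called lower), and Klf6 in the TCA comparison turned from 0.020 to -0.013. The Gfi1 difference between GCA and TCA (-0.0071) was 0.0037 with total library size and 0.0060 with limma on log2(RPKM + 1). Leaving out a sample turned the sign of log2 fold changes near 0, none of which was called. With Tβ-MCA the range was Cebpe -0.34 to 0.037. With TCA the ranges were Cebpb -0.063 to 0.060, Cebpd -0.19 to 0.027, Cebpe -0.38 to 0.040, Spi1 -0.066 to 0.0037, Gfi1 -0.16 to 0.025 and Klf6 -0.065 to 0.098. With GCA they were Cebpe -0.27 to 0.11, Spi1 -0.031 to 0.076, Runx1 -0.031 to 0.077, Gfi1 -0.14 to 0.021, Klf2 -0.070 to 0.029, Klf4 -0.10 to 0.27 and Klf6 -0.088 to 0.060. Between GCA and TCA they were Cebpa -0.12 to 0.075, Cebpd -0.13 to 0.038, Cebpe -0.048 to 0.26, Spi1 -0.0051 to 0.10, Gfi1 -0.061 to 0.084, Klf2 -0.00053 to 0.099 and Klf6 -0.10 to 0.043. Over the whole table, Tβ-MCA calls numbered 1278, against 2103 with DESeq2, 1498 with the block, 2406 with no filter and 861 with limma, 0 when only the 2 groups were fitted, and 0 to 3076 on leaving out a sample. With 3 samples a group, the standard errors of the Tβ-MCA differences ran from 0.073 to 0.22 on the log2 scale.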

Other observations

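Sample number 3 was the highest of its group for Cebpe in all 4 groups, at 1.51 times the mean of the other samples with PBS, 1.43 with TCA, 1.21 with Tβ-MCA and 1.24 with GCA. Of all genes tested, 8.21% were highest in number 3 in all 4 groups. Cebpd, Runx1, Gfi1, Klf4 and Klf6 were highest in number 3 in 3 of the 4 groups, the exception being Tβ-MCA in each case. The labels do not say what the numbers stand for.

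In Tβ-MCA sample 5, the 10 genes lay between 84.7% (Klf4) and 96.1% (Spi1) of their PBS means, whereas they lay between 50.7% (Klf4) and 99.3% (Cebpe) in sample 3 and between 47.7% (Klf4) and 91.8% (Klf6) in sample 4. Csf1r, the receptor of monocyte colony-stimulating factor, measured 146, 178 and 235 CPM in Tβ-MCA samples 3, 4 and 5 and 215 to 271 CPM with PBS. Ccr2, a chemokine receptor of inflammatory monocytes, measured 2.03, 2.70 and 29.2 CPM in these samples and 37.3 to 51.2 CPM with PBS.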
